A study of Homo sapiens with 21 samples.

Results

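The genes of control MDA-MB-436 cells were divided by whether their span, from the lowest exon start to the highest exon end, met a peak of DNA-RNA hybrid signal. The hybrid-binding antibody S9.6 was used in 2 libraries, and genes were chosen as having a peak where both libraries called at least 1 peak over at least 1 bp of the span. This held for 8627 of 24993 genes (34.5%) that lie at 1 locus on chromosomes 1 to 22 or X, of 26485 genes counted in all. A further 14088 genes (56.4%) met no peak in either library, and 2278 (9.11%) met one in 1 library only. In a gene with a peak, the peaks of the 2 libraries did not have to overlap each other. Single genes were ranked among protein-coding genes outside chromosome 8 only. The groups were set against mRNA level, gene span, exon number and the position of neighbouring genes.

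MDA-MB-436 is an established human breast cancer cell line, and the series title concerns RNF8, XRN2 and R-loops in cells with a mutated BRCA1 gene. The control cells carried a doxycycline-inducible lentiviral hairpin labelled shScr, and the cells set beside them at the end carried a hairpin against RNF8 (shRNF8) in the same vector system. DRIP-seq, which sequences chromatin pulled down with S9.6, gave 2 S9.6 and 2 RNase-treated shScr libraries and 4 S9.6 shRNF8 libraries, and mRNA was sequenced in 3 libraries of each hairpin. The kind of RNase is labelled only by a code, untransduced cells are not among the samples, and the labels do not say whether libraries came from separate cultures, so spreads and p-values measure these libraries only.

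An R-loop forms when RNA pairs with one DNA strand and displaces the other, most often as RNA polymerase moves away from the hybrid it has just made. R-loops are known from CpG-rich gene starts, from the ends of transcribed genes where polymerase pauses, and from highly transcribed gene bodies. RNase H enzymes, helicases such as senataxin and mRNA packaging complexes limit them. Peaks carry no strand, so a peak shared by overlapping genes counted for each of them.

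The RNA libraries held 18147348 to 20006954 counts in genes, with 17212 to 17835 genes detected. RNA replicate 1 stood apart from replicates 2 and 3, differing from them beyond sampling noise by chi-square values of 30.7 and 29.6 per degree of freedom, where replicates 2 and 3 differed by 3.40. The S9.6 libraries held 49277 and 38659 peaks, and their total read depth is unknown. The 12 mesenchymal and basal breast line markers had mean levels from 0 to 1107 TPM (transcript counts scaled for length and depth), with a median of 14.4 TPM. Among them the vimentin gene VIM (1107 ± 73.0 TPM, SD, n = 3), MSN and CD44 were high, while the basal keratin KRT5 was at 0 in every library. The luminal keratins KRT8 and KRT18 were expressed at 557 to 921 and 508 to 776 TPM, whereas the oestrogen receptor gene ESR1 was at or below 0.0347 TPM. Of 4 measured immune markers, the T cell gene CD3E was at 0, and CD14 stood at 12.9 to 17.7 TPM.

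Promoter sequence is shown first for 3 genes with the strongest start signal and 3 highly expressed genes with no peak in their span. CCDC85B, CKS2 and MAGEA4 had the highest lower-of-2 peak fold at a summit within 1 kb of their start among the ranked protein-coding genes of at least 10 TPM. RPL35A, COX7B and ANXA1 were the most highly expressed of these genes without a peak, with a span of at least 5 kb, whose promoters RefSeq tables held. ATP5B ranked above RPL35A and is named only. Each sequence runs 5′ to 3′ on the gene's strand from 250 bases before to 50 bases after the RefSeq start (GRCh38.p14), and capitals mark runs of at least 4 G. CCDC85B lies at chr11:65890423-65890722, CKS2 at chr9:89310945-89311244 and MAGEA4 at chrX:151912224-151912523, all on the plus strand.
CCDC85B: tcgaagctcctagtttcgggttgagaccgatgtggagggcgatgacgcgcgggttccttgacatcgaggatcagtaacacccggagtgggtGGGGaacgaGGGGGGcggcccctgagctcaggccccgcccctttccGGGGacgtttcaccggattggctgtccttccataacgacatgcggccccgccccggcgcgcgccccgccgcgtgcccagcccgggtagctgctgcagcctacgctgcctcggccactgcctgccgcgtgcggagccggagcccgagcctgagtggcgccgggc
CKS2: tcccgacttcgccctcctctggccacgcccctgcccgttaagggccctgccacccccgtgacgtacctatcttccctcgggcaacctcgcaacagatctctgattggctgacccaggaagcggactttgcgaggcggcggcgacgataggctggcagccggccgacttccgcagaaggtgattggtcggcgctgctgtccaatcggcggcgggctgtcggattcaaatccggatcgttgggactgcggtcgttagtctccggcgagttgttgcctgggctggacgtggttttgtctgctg
MAGEA4: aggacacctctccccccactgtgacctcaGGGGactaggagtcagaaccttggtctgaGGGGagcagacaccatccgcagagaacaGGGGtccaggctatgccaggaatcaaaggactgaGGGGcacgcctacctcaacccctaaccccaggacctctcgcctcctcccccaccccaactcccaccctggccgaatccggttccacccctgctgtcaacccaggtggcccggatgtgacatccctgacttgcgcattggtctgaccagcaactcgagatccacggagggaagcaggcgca

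The start peaks of CCDC85B, a coiled-coil protein gene with 1 exon, had a fold enrichment, the authors' own value for each peak, of 52.9 and 61.7 in the S9.6 libraries. CKS2, a subunit that binds cyclin-dependent kinases, had 49.1 and 56.1, and the cancer-testis antigen gene MAGEA4 had 64.9 and 47.8. Their promoters held 70.7%, 64.0% and 62.3% G and C bases, with 35, 30 and 10 CpG dinucleotides. In CKS2 no run of GGGG was present on this strand. The promoters of the genes without a peak follow, with RPL35A at chr3:197949940-197950239, COX7B at chrX:77899218-77899517 and ANXA1 at chr9:73151615-73151914, again on the plus strand.
RPL35A: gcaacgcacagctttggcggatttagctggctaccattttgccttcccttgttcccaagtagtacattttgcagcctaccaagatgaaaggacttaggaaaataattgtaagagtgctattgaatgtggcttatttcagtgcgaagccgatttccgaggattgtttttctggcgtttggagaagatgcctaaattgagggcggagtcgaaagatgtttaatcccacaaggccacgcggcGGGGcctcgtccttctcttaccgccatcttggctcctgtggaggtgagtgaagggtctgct
COX7B: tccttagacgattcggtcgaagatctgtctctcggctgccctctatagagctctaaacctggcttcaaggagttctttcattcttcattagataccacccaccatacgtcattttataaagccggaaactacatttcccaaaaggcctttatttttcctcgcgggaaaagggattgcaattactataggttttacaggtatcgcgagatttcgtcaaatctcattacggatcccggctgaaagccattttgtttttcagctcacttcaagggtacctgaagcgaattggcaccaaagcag
ANXA1: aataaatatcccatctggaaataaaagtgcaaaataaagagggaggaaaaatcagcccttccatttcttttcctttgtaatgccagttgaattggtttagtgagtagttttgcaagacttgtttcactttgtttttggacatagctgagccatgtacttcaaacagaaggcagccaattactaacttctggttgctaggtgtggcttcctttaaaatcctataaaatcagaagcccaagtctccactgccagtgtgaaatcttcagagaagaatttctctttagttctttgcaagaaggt

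RPL35A, a ribosomal protein gene, had 1320, 1287 and 1246 TPM in the RNA libraries and a promoter of 49.0% G and C. COX7B, a subunit of cytochrome c oxidase, had 581, 634 and 665 TPM and 44.0%. ANXA1, which encodes the calcium-dependent membrane protein annexin A1, had 529, 593 and 554 TPM, 37.7% G and C and no CpG. No S9.6 peak met their spans in either library. Levels in the genes with start peaks ran from below to above these, at 311, 303 and 351 TPM for CCDC85B, 591, 518 and 450 TPM for CKS2 and 1404, 1162 and 1149 TPM for MAGEA4, which has close paralogs that can share reads.

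The contrast in base composition held over many genes of like mRNA level. RefSeq promoters were matched to 14514 of 18087 protein-coding genes (80.2%), and to 83.8% of those at 10 to 100 TPM. In that class, 1727 promoters with a summit within 1 kb of the RefSeq start in both libraries had a median of 69.0% G and C and 31 CpG, against 63.7% and 25 CpG in 2687 with no start summit. A run of GGGG on the gene's strand was found in 89.1% and 83.1% of them, against 81.3% of all 14514 promoters. The opposite-strand run CCCC was found in 88.4% and 82.4%. At 100 TPM or more, where 84.1% were matched, the medians were 67.0% G and C in 730 promoters with a start summit and 62.3% in 475 without. Within the 10 to 100 TPM class the share with a start summit was 6.45% of 155 promoters below 45% G and C, 16.9% of 537 at 45 to 55%, 26.3% of 1770 at 55 to 65%, 36.1% of 2076 at 65 to 75% and 42.3% of 971 above. Peak calls can depend on base composition through amplification and mapping, and that dependence was not tested. Less than 80% of genes below 10 TPM had a promoter, so the comparison is void there.

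Genes with a peak were expressed at far higher levels than genes without. The median of the mean level was 22.96 TPM in the 8627 genes with a peak and 0.0452 TPM in the 14088 without, with 8.43 TPM in the genes called in 1 library. In RNA replicates 1, 2 and 3 the medians were 21.6, 23.5 and 23.4 TPM in genes with a peak, and 0, 0 and 0.0198 TPM in genes without. The middle 50% of genes ran from 4.28 to 66.6 TPM with a peak and from 0 to 1.90 TPM without, so that these ranges did not overlap. On the log2(TPM + 0.1) scale, which understates the change of low genes, the medians differed by 7.31. Over the 6 pairings of 1 S9.6 with 1 RNA library, where a peak in that S9.6 library is enough, the difference ran from 6.97 to 7.52. Without RNA replicate 1, which stood apart, it was 7.32. The same order held in counts scaled by TMM to library size (CPM), which are not corrected for transcript length, with medians of 32.5 and 0.0347 CPM and a difference of 7.92 on the log2(CPM + 0.1) scale. Much of its size came from genes with hardly any counts: among genes with at least 10 counts over the 3 libraries the difference was 2.59 for TPM and 2.80 for CPM.

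**Figure D1:**
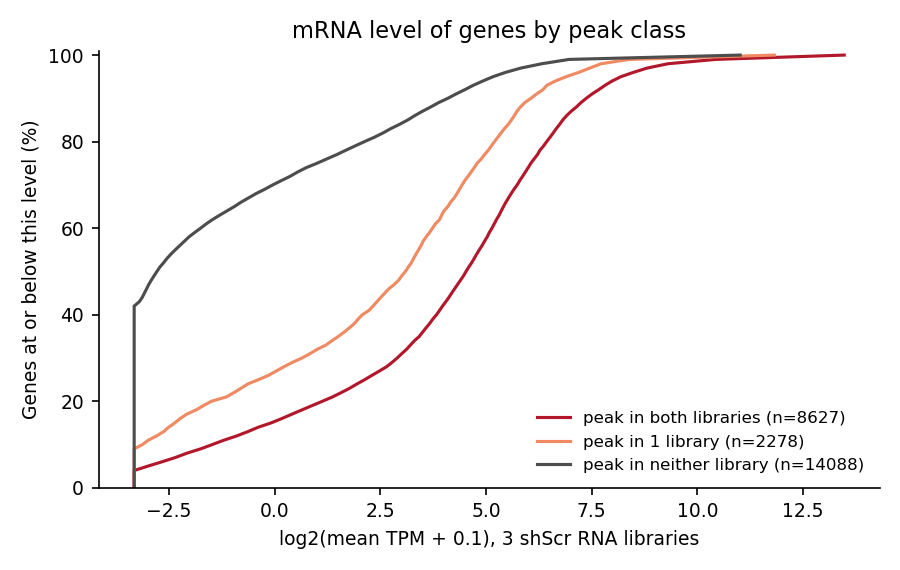
Cumulative share of genes (y axis, percent) at or below each mRNA level (x axis, log2 of mean TPM plus 0.1 over 3 shScr RNA libraries) for genes with a peak in both S9.6 libraries (red), in 1 library (orange) and in neither (grey). The red curve lies to the right throughout, with a median of 22.96 TPM against 8.43 TPM in genes called in 1 library and 0.0452 TPM in genes with no peak.

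The share of genes with a peak rose with every step in mRNA level. It was 5.88% of 6595 genes without a count, 10.6% of 2153 below 0.1 TPM, 23.1% of 3242 at 0.1 to 1 TPM, 36.6% of 4325 at 1 to 10 TPM, 61.1% of 6854 at 10 to 100 TPM and 81.4% of 1824 at 100 TPM or more. Each S9.6 library gave the same order, from 7.95% to 86.1% in replicate 1 and from 7.13% to 84.1% in replicate 2. Shares in the RNase-treated libraries were far lower in every class. In replicate 1 they rose from 0.485% without a count to 0.802% at 0.1 to 1 TPM and fell to 0.603% at 100 TPM or more. In replicate 2 they rose from 0.561% without a count to 0.861% at 10 to 100 TPM, with 0.822% at 100 TPM or more. Over all genes, 41.1% and 37.1% had a peak in the S9.6 libraries, against 0.628% and 0.740% in the RNase-treated libraries. The difference of the means, 38.4 percentage points, gave a two-sided exact permutation p of 0.333, the smallest that 2 against 2 libraries allow. Of the 8627 genes with a peak, 168 (1.95%) also met a peak of at least 1 RNase-treated library. A peak in both RNase-treated libraries was met by 74 of these 8627 genes, and by 108 of all 24993 genes (0.432%).

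**Figure D2:**
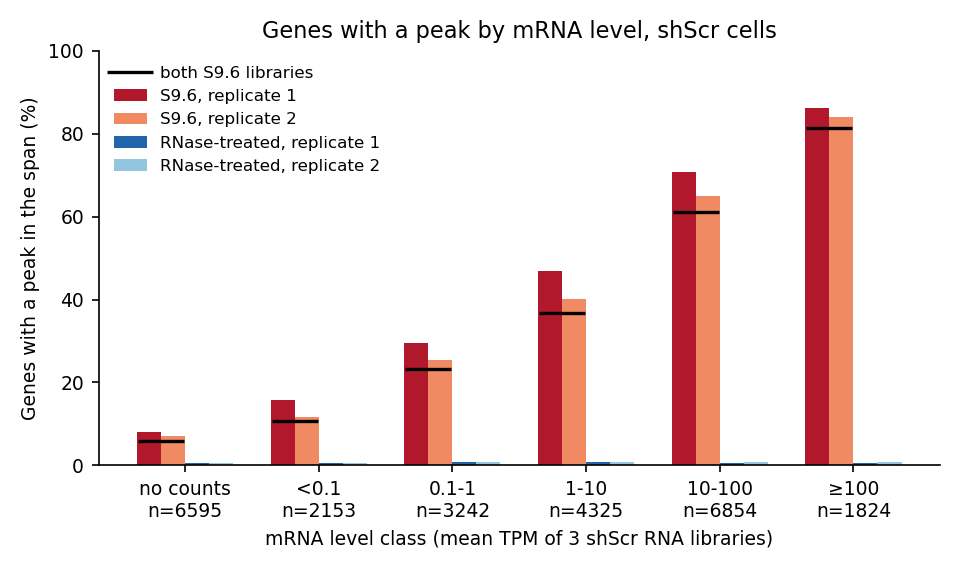
Share of genes whose span met a peak (y axis, percent) by class of mean TPM (x axis, with the number of genes), as bars for each S9.6 library (reds) and each RNase-treated library (blues). Black dashes mark genes with a peak in both S9.6 libraries, which climb from 5.88% to 81.4%, while every blue bar stays under 1%.

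Outside chromosome 8, the 6 most highly expressed protein-coding genes with a peak all had a summit at their start or their end in both libraries. EEF1A1, the translation elongation factor, had 11389, 11669 and 11050 TPM, and peaks with a fold of up to 10.1 and 7.68 at its start, body and end. The cytoskeletal actin gene ACTB had 11880, 10762 and 10917 TPM, 2 peaks in each library and a peak summit near its end. Its strongest peak (fold 21.1 and 18.2) was 6517 and 6531 bp wide, and which peak held the end summit was not determined. GAPDH, a glycolytic enzyme, stood at 9004, 9502 and 9643 TPM, and its peak at chr12:6531970-6536210 had a fold of 43.8 and 39.2 and identical ends in both libraries. The ferritin genes FTH1 (8355, 10443 and 10652 TPM) and FTL (8615, 9005 and 9171 TPM) reached 20.5 and 14.0, and 11.5 and 12.5. GNB2L1, which encodes the ribosomal scaffold protein RACK1, had 6199, 7053 and 7059 TPM but weaker peaks of 3.23 and 4.93. Processed pseudogenes of such genes can share their reads, so their exact levels are uncertain. Over these 6 genes the highest peak fold thus ran from 3.23 to 43.8 in S9.6 replicate 1 and from 4.93 to 39.2 in replicate 2.

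High expression did not always come with a peak. Of 1824 genes at 100 TPM or more, 204 met no peak and 135 met one in 1 library only. Outside chromosome 8, ATP5B had the highest level of the protein-coding genes without a peak in either library and with a span of at least 5 kb. This gene of the beta subunit of mitochondrial ATP synthase had 1375, 1324 and 1306 TPM. RPL35A, COX7B and ANXA1 followed, and SLC25A3, the mitochondrial phosphate carrier (535, 509 and 484 TPM), and the pyrophosphatase gene PPA1 (481, 510 and 477 TPM) completed the 6. XRN2, the exonuclease of transcription termination named in the series title, is singled out here after its values were seen. It had 116, 102 and 91.4 TPM over a span of 86.5 kb and no peak in either library.

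The strongest peaks were not at the most highly expressed genes. JUND and JUN, single-exon genes of AP-1 transcription factors, had the highest lower-of-2 folds of protein-coding genes outside chromosome 8, at 60.02 and 73.8 for JUND and 54.8 and 54.6 for JUN. JUND had 149, 253 and 283 TPM and JUN 314, 173 and 183 TPM, so that RNA replicate 1 was the lowest for JUND and the highest for JUN. The next 4 genes, CCDC85B, CTSW, FIBP and FOSL1, share 1 peak on chromosome 11, which ran over 13329 bp (chr11:65879033-65892361) in S9.6 replicate 1 and 11826 bp (chr11:65880610-65892435) in replicate 2. FOSL1, another AP-1 gene, had 527, 496 and 488 TPM and the growth factor binding protein gene FIBP 154, 170 and 165 TPM. CTSW, a protease gene known from cytotoxic lymphocytes, had 0.280, 0 and 0.0973 TPM and counts as a gene with a peak only by lying under this shared domain.

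Most genes without a count that met a peak overlapped another gene. Of the 388 such genes with a peak, 300 overlapped another gene span (77.3%), against 36.4% of the 5989 without a peak, and 193 lay wholly inside a gene on their own strand. A gene of at least 10 TPM lay over or within 5 kb of 75% of them, against 10.2% of those without a peak. Where no gene overlapped, 88 of 3986 genes without a count had a peak (2.21%), against 62.8% of 6109 genes of at least 10 TPM. Where no other gene lay within 5 kb, 19 of 3043 did (0.624%), and the share then rose through 2.63%, 6.86%, 21.4%, 51.2% and 73.1% over the higher TPM classes. The difference between genes of at least 10 TPM and genes without a count was 59.5 percentage points over all genes (65.4% of 8678 genes against 5.88%), and 54.8 among genes with no other gene within 5 kb. Without RNA replicate 1 it was 59.0.

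A count of 0 in this table does not show that a gene was silent. EIF4A1, the helicase of translation initiation that dividing cells use at high levels, was listed at 0 in all 3 RNA libraries and carried a peak with a fold of 68.5 and 41.5. The readthrough gene SENP3-EIF4A1, whose span holds that of EIF4A1 whole, had 7, 5 and 10 counts. The counting command in the file header sets no option for read pairs that meet several genes, which the counting program by default assigns to none. WDR38, also at 0 with a peak fold of 22.6 and 22.4 at its start, overlaps the opposite-strand ribosomal protein gene RPL35 (3088, 2749 and 2881 TPM). GDF1 at 0, with 14 and 15 peaks, lies within the span of CERS1. PPAN-P2RY11 and BOLA2 were also among the strongest, and the span of BOLA2 (741 kb) joins distant copies. Spans over 1.5 times the RefSeq length, 206 in all, included that of the lens gene CRYAA, listed over 36612 kb with 328 and 249 peaks and no count.

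Gene span told genes with and without a peak apart far less than mRNA level did. The median span was 19.7 kb in genes with a peak (middle 50% from 7.32 to 50.6 kb) and 14.6 kb in genes without (2.71 to 48.7 kb), with 28.0 kb in genes called in 1 library. The log2 difference, 0.44, turned to -0.11 among protein-coding genes and to -0.60 among genes with at least 10 counts, so its direction depended on which genes were compared. By span class the share with a peak was 13.9% below 1 kb, 36.5% at 1 to 10 kb, 40.2% at 10 to 30 kb, 37.9% at 30 to 100 kb, 33.9% at 100 to 300 kb and 23.8% of 766 genes above. At 10 to 100 TPM it was 39.5% of 129 genes below 1 kb, 70.3% of 1305 genes of 1 to 10 kb, 56.4% of 2355 genes of 30 to 100 kb and 60.8% of 125 genes of at least 300 kb, with no steady order by span. The share rose with every step in mRNA level in the span classes from 1 to 300 kb, and in genes of 30 to 100 kb it was 4.49% without counts, 32.7% at 1 to 10 TPM and 79.7% at 100 TPM or more. In genes of at least 300 kb it did not rise steadily, at 23.2% without counts, 6.30% below 0.1 TPM, 5.03% at 0.1 to 1 TPM and 25% at 1 to 10 TPM. A longer span offers more places for a peak, and the number of peaks per 100 kb of span in S9.6 replicate 1 fell over the same classes from 17.4 at 1 to 10 kb to 0.675 at 300 kb or more.

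**Figure D3:**
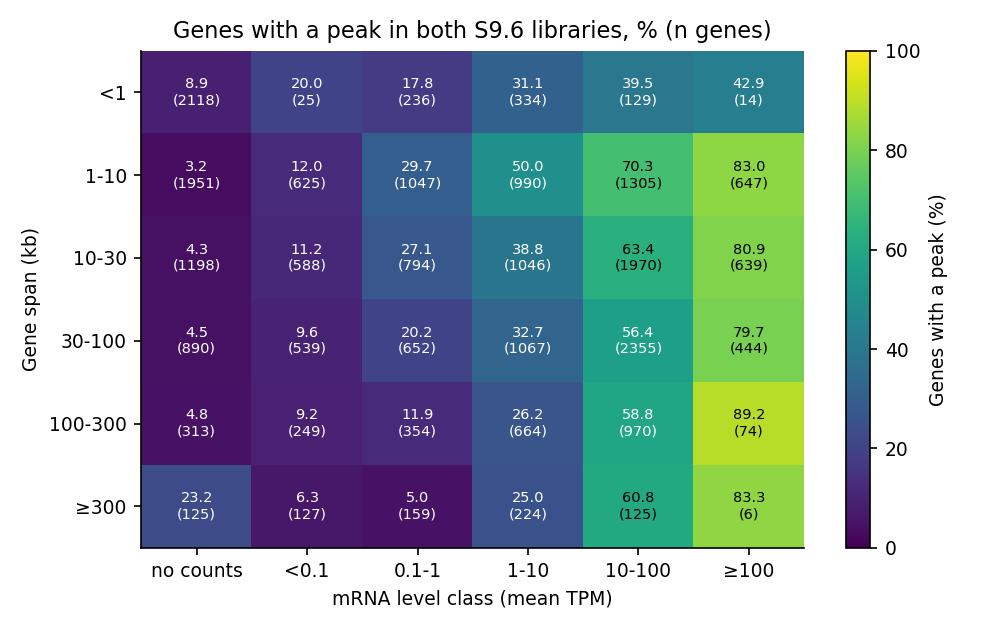
Share of genes with a peak in both S9.6 libraries (colour and upper number in each cell, percent, with the number of genes in brackets) by gene span in kb (y axis) and class of mean TPM (x axis). Colours change mainly from left to right, from 4.49% to 79.7% in the row of 30 to 100 kb. The cell of 125 genes without counts and at least 300 kb (23.2%) includes spans that join distant copies.

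Outside chromosome 8, the longest protein-coding genes of at least 1 TPM without a peak were PTPRD, DMD, FHIT and LINGO2. PTPRD, a receptor phosphatase gene of 2298 kb, had 1.36, 1.25 and 1.18 TPM. The dystrophin gene DMD, of 2220 kb with 85 exons, had 1.67, 2.60 and 2.33 TPM, and the fragile-site gene FHIT, of 1502 kb, had 2.00, 1.64 and 2.197 TPM. LINGO2 spans 1265 kb and had 0.639, 1.29 and 1.66 TPM. All 4 had a mean level below 3.84 TPM, the median of genes at 1 to 10 TPM. The median over all genes was 1.38 TPM, with the means of PTPRD and LINGO2 below it and those of DMD and FHIT above it. The median of genes without a peak was 0.0452 TPM. The 4 genes were chosen at 1 TPM or more, so their place above that value was set by the choice.

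Genes with a peak had more exons than genes without. The median was 9 merged exons with a peak and 5 without, and single-exon genes made up 6.46% and 21.5% of these classes. The share with a peak rose from 14.6% of 3805 single-exon genes through 25.3%, 33.7% and 43.95% to 48.5% of 4048 genes with 16 or more exons. Median TPM rose over the same classes from 0 to 11.9, and median span from 0.110 to 82.1 kb. Among protein-coding genes of at least 1 TPM the gradient was shallower, from 39.2% of 265 single-exon genes and 54.5% with 2 to 3 exons to 61.1% with 16 or more. Held to 10 to 100 TPM and 10 to 100 kb, the shares were 60.7%, 53.5%, 58.0% and 67.9% for 2 to 3, 4 to 7, 8 to 15, and 16 or more exons, with no steady rise. Median peak fold in S9.6 replicate 1 differed little by exon class, from 7.72 to 9.30.

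Peaks stood at starts, in bodies and at ends of genes, and the share at each position rose with mRNA level. These windows differ in size, the body being the whole rest of the span. The shares are not scaled for size and do not rank the positions. A summit lay within 1 kb of the start in both libraries in 48.4% of genes with a peak, against 17.7% of all genes. A summit lay from 1 kb before to 5 kb after the end in 55.1%, against 22.7% of all genes, and in the body between these in 66.0%, against 22.8%. Since these shares use the peaks that chose the genes, they are a description. From genes without a count to those of at least 100 TPM, the share of all genes with a start summit rose from 3.25% to 48.7%, with a body summit from 2.03% to 53.6% and with an end summit from 6.72% to 57.0%. At 10 to 100 TPM the shares were 44.7% for bodies, 30.8% for starts and 37.9% for ends. Among genes with no other gene within 5 kb and at least 100 TPM, end summits were found in 43.7%, body summits in 50.4% and start summits in 48.2%.

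**Figure D4:**
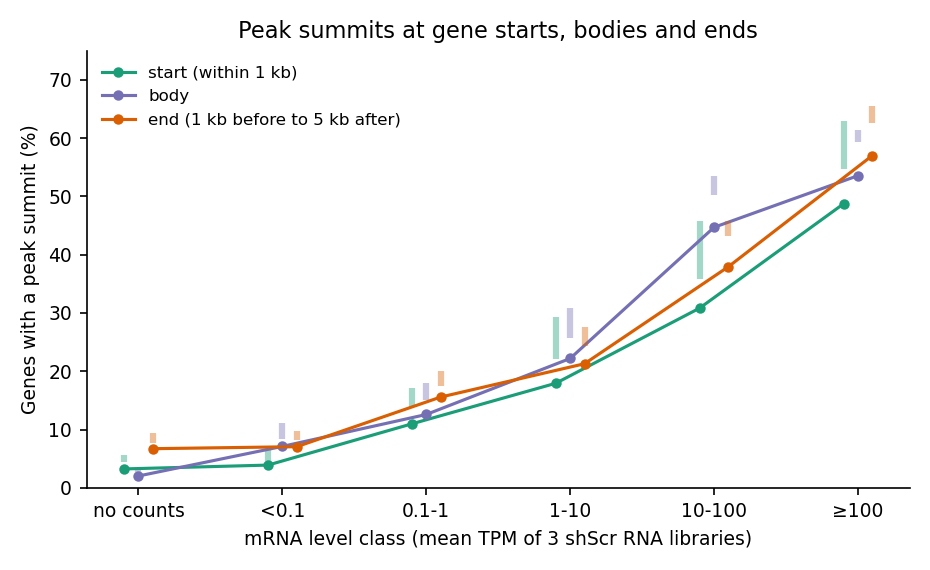
Share of genes with a peak summit in both S9.6 libraries (y axis, percent) at the start, in the body and at the end of the gene, by class of mean TPM (x axis). Points are both libraries together and pale bars span the 2 single libraries. All 3 positions climb with mRNA level, ends from 6.72% to 57.0% and starts from 3.25% to 48.7%.

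A neighbour within 5 kb of the gene end went with a larger difference than a divergent start within 1 kb of the gene start. These windows are unlike in size, and equal windows were not tried. Among 13003 genes of at least 1 TPM, 55.8% had a peak. With an opposite-strand gene end within 5 kb of their own end, 72.5% of 3468 genes had a peak, against 49.8% of 9535 without such a convergent neighbour. The difference was 22.7 percentage points. Over the 6 pairings of single libraries, where a peak in 1 S9.6 library is enough, the difference ran from 17.6 to 22.7. Within 10 to 100 TPM and 10 to 100 kb it remained, at 71.4% of 1199 genes against 55.1% of 3126. End summits were found in 53.6% and 28.4% of genes of at least 1 TPM with and without a convergent neighbour, and start summits in 34.7% and 27.0%. The end window reaches 5 kb past the gene end, so by definition it can cover the convergent neighbour's own end. A higher share of end summits is thus partly built in. The share with a peak in the span followed the neighbour's own level, at 58.8% where the neighbour was below 1 TPM, 66.3% at 1 to 10 TPM and 80.1% at 10 TPM or more. A same-strand gene that starts within 5 kb downstream gave similar values, 71.7% of 1695 genes with it against 53.4% of 11308 without.

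Antisense overlap went with a smaller difference and a divergent start with almost none. Of 2933 genes overlapped by an opposite-strand gene, 62.6% had a peak, against 53.9% of 10070 without, a difference of 8.78 percentage points. With the antisense neighbour at 10 TPM or more the share was 72.5%, and with it below 1 TPM 50.1%. Genes with such a low neighbour had a median of 15.04 TPM and 50.4 kb, against 21.1 TPM and 25.7 kb in genes without an antisense neighbour, and within 10 to 100 TPM and 10 to 100 kb their share was 59.2%, against 58.0% without. Of 2779 genes with an opposite-strand start within 1 kb, 56.5% had a peak, against 55.6% of 10224 without. This difference of 0.888 percentage points turned to -3.05 where the peak summit had to lie in the span and to -2.97 among genes with no overlapping gene. Within 10 to 100 TPM and 10 to 100 kb the share was lower with a divergent neighbour, at 54.6% of 992 genes against 61.1% of 3333 without. Start summits alone were found in 33.5% of genes with a divergent neighbour and 27.9% without, but within 10 to 100 TPM and 10 to 100 kb in 29.7% and 28.8%, and there in 32.96% and 33.63% in S9.6 replicate 2. Genes with any other gene within 5 kb had a peak more often than isolated genes, in 61.9% of 8667 and 43.8% of 4336. Since a peak at a neighbour can reach into the span, and unstranded counts cannot part overlapping antisense genes, the share of neighbour signal in these values cannot be told apart from the gene's own.

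**Figure D5:**
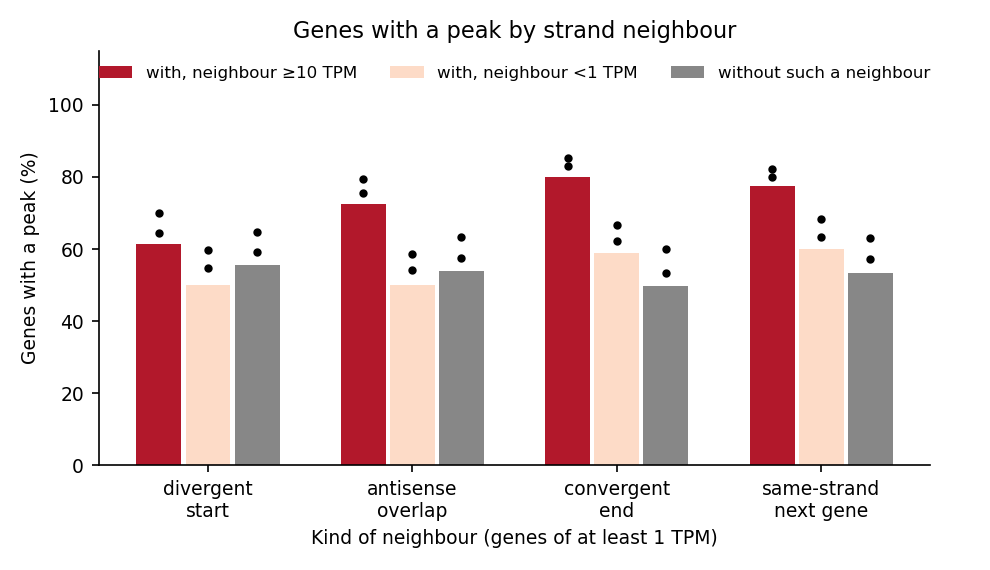
Share of genes of at least 1 TPM with a peak in both S9.6 libraries (bars, y axis, percent) for 4 kinds of neighbour (x axis), with the neighbour at 10 TPM or more (red), below 1 TPM (pale) and with no such neighbour (grey); dots are single S9.6 libraries. The convergent bars stand at 80.1%, 58.8% and 49.8%, and the divergent bars at 61.3%, 49.9% and 55.6%.

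All measures were set side by side in 1 logistic fit over 24993 genes, given as a description with no p. Of the measures scaled to their SD, mRNA level carried the largest coefficient, 1.32, which fell to 0.817 among genes with at least 10 counts. Neighbours entered as present or absent, so their values are not on that scale. A rise of 1 SD in log2(TPM + 0.1), which is 3.89, multiplied the odds of a peak by 3.75. A convergent neighbour multiplied them by 2.78 and an antisense gene by 1.47, while a divergent start left them at 0.973. A rise of 1 SD in log2 exon number multiplied them by 1.47, and 1 SD in log2 span by 0.667. The fit takes the odds to change steadily with log2 span, whereas the shares by span class at 10 to 100 TPM had no steady order. The span value therefore describes the fit and not a fall with span at each level. Each S9.6 library alone gave 3.84 and 3.82 for mRNA level and 0.755 and 0.685 for span.

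Among genes with a peak, mRNA level went only weakly with how strong or how many the peaks were. Spearman's rho across these 8627 genes, which share libraries and neighbourhoods and are not independent, was 0.144 and 0.163 between TPM and the highest peak fold in S9.6 replicates 1 and 2. It was 0.187 and 0.215 between TPM and the number of peaks, against 0.430 and 0.379 between span and the number of peaks. Peak fold itself ranked alike in both libraries, with a rho of 0.830. The median gene with a peak held 3 and 2 peaks, covering 15.9% and 14.3% of the span, with a highest fold of 7.92 and 7.61. Genes called in 1 library only had weaker peaks, with median folds of 4.55 for 1640 genes in replicate 1 and 4.45 for 638 genes in replicate 2.

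Highly expressed gene families are given as counts, with no test, beside the 34.5% of all genes and the 81.4% of genes of at least 100 TPM that had a peak. Of 79 cytosolic ribosomal protein genes (median 1817 TPM), 68 had a peak (86.1%). RPLP1, which encodes a protein of the ribosomal stalk, was among the 5 without, at 2079, 2086 and 2025 TPM. Of 36 SR and hnRNP genes, which encode splicing and RNA-binding proteins (median 157 TPM), 30 had a peak (83.3%), among them HNRNPA1 (1650, 1414 and 1368 TPM) and HNRNPK (839, 741 and 718 TPM). Of 33 proteasome genes 18 had a peak (54.5%), with a median of 187 TPM and a lowest level of 53.2 TPM, where the share over all genes of 10 to 100 TPM was 61.1%. The catalytic subunit gene PSMB6 had 325, 298 and 284 TPM and PSMB1 296, 286 and 274 TPM with no peak in the span, and PSMB6 had a summit just past its end. PSMB4, the proteasome gene with the highest level (1598, 1474 and 1473 TPM), had a peak with a fold of 6.54 and 3.11.

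At the low end of expression, 0 of 330 olfactory receptor genes had a peak in both libraries and 1 had one in 1 library, and 311 of them had no count. The share with a peak was 5.88% of all genes without a count, and 0.624% of those with no other gene within 5 kb. Of 16 tissue genes not expected in breast cells, 2 had a peak (12.5%), against 10.6% of all genes below 0.1 TPM. They were ACTN3, a muscle actinin gene at 0, 0.207 and 0 TPM, and CRYAA with its joined span. Replication histone genes had a peak in 8 of 67 (11.9%) at a median of 0.929 TPM, against 23.1% of all genes at 0.1 to 1 TPM and 14.6% of all single-exon genes. Most histone mRNAs lack a poly(A) tail and would be missed where RNA is selected by poly(A), so their TPM may understate their transcription. HIST3H2A, at 19.8, 22.2 and 22.6 TPM, had a peak in both libraries, and HIST1H2AC, at 207, 144 and 153 TPM, in 1 only. Of 43 collagen chain genes, with a median of 0.337 TPM, 11 had a peak (25.6%), against 23.1% of all genes at 0.1 to 1 TPM. They were led by level by COL6A2 (136, 196 and 214 TPM), and COL18A1 held 38 and 36 peaks. Of 235 zinc finger genes on chromosome 19, 70 had a peak (29.8%), at a median of 3.89 TPM and against 36.6% of all genes at 1 to 10 TPM.

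Genes often used as positive or negative sites in DRIP assays are given as counts, with no test. Positive and negative sites were not separated. Of 11 measured (median 163 TPM), 10 had a peak (90.9%), against 34.5% of all genes and 81.4% of genes of at least 100 TPM. Among them were RPL13A (2697, 2801 and 2889 TPM, folds of 24.1 and 16.5) and CALM3, which encodes calmodulin (342, 352 and 358 TPM, folds of 12.4 and 16.3). The exception was the chromatin reader gene ING3, at 9.69, 7.02 and 5.58 TPM. Of 28 genes of R-loop factors, 13 had a peak (46.4%), 6 in 1 library only and 9 in neither, at a median of 41.8 TPM and against 61.1% of all genes at 10 to 100 TPM. Their median levels were 66.7 TPM with a peak and 18.1 TPM without. The helicase genes DDX5 (317, 282 and 269 TPM) and DDX21 (319, 271 and 256 TPM) and SSRP1, a subunit of the histone chaperone FACT, had peaks in both libraries. RNASEH2A, the catalytic subunit of RNase H2 (397, 363 and 373 TPM), had a weak peak (fold 3.31) in replicate 1 only.

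The relation of peaks and mRNA level was also measured in shRNF8 cells, with the RNA of their own hairpin. The TPM difference between genes with and without a peak in each single library was 6.95, 6.62, 6.97 and 6.98 on the log2(TPM + 0.1) scale in shRNF8 replicates 1 to 4, and 6.95 and 6.88 in shScr replicates 1 and 2. The groups overlapped, with means of 6.88 in shRNF8 and 6.92 in shScr, and a difference of -0.0345 (two-sided exact permutation p = 0.933, where the smallest this test allows is 0.133). With the same number of peaks in all 6 libraries (32358) the difference was 0.0311 (exact p = 0.8). At 100 TPM or more, 78.5%, 72.8%, 86.4% and 84.9% of genes had a peak in the shRNF8 libraries, against 86.1% and 84.1% in the shScr libraries.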

How the data were processed

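The deposited count table gives raw counts of read pairs per gene for 3 shScr and 3 shRNF8 mRNA libraries, made with featureCounts and an hg38 gene annotation with no strand option, per the file headers, which also give each gene's exonic length. The authors deposited 1 peak list per DRIP library, with coordinates on hg38, per the labels, a fold enrichment (ratio) of each peak and −log10 p and q values. Peaks were called per sample, per the file headers. The submitters' processing notes name Trim Galore 0.6.6, Bowtie2 2.2.6, STAR 2.7.9a, SAMtools 1.14, Picard 2.10.9, MACS2 2.2.7.1, deepTools 3.5.1 and Subread 2.0.1, with no roles. The lowest −log10 q in the deposited S9.6 lists was 2.03 and 2.00. Input libraries and the RNase-treated shRNF8 lists were not analysed here.

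From these values, TPM was computed from counts and exonic length, and CPM was scaled by TMM (edgeR 4.0.16, R 4.3.3), with DESeq2 1.42.0 size factors as an alternative. A pseudocount of 0.1 was used on log scales. Gene spans and merged exon numbers came from the count table, and 1492 genes with several loci or outside chromosomes 1 to 22 and X were left out. Gene types and promoters came from RefSeq (GRCh38.p14), of which only names, types, lengths and sequences of listed promoters were used, and 23903 genes had a type. A divergent neighbour starts on the opposite strand within 1 kb of the gene's start, a convergent one ends within 5 kb of its end. Medians and shares were compared as descriptions, since genes are not replicates, and only library values were tested, by two-sided exact permutation (SciPy 1.17.1). Leaving out a library, stricter peaks, other gene sets and other scalings were tried. Overlap and fit functions were tested on simulated data. The members and gene lists were chosen with earlier results of these data known.

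Named genes were the 6 most highly expressed genes with a peak, the 6 most highly expressed without one and with a span of at least 5 kb, the 6 without counts and the 6 overall with the highest lower-of-2 peak fold, the 4 longest without a peak at 1 TPM or more, and up to 4 members of each list by level, in every case among protein-coding genes not on chromosome 8. Members singled out beyond this were chosen after their values were seen. A gene of the rule on genes without counts is not reported here. Analyses used Python 3.11.15, NumPy 2.4.6, pandas 2.3.3 and statsmodels 0.14.6, with figures by matplotlib 3.10.9.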

Additional observations from a re-analysis of the deposited data

Results flagged for a closer look

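One library of the comparison with shRNF8 cells lay apart from its group. In shRNF8 replicate 2 the TPM difference between genes with and without a peak was 6.62 on the log2(TPM + 0.1) scale, against 6.95, 6.97 and 6.98 in shRNF8 replicates 1, 3 and 4. Its gap to the nearest library exceeded the 95% limit for the lowest of 4 values, which chance passes in about 1 of 20 groups. That library had 34103 peaks and met 33.0% of genes, against 32358 peaks and 36.0% of genes in shRNF8 replicate 1. With 32358 peaks in each library its value was 6.58, against 6.95, 6.83 and 6.83 in shRNF8 replicates 1, 3 and 4.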

How the results depend on the processing

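Of 187 alternatives to the 13 main values, 118 kept the value within its spread between libraries or on its side of the test, 62 moved it by more and 7 turned its direction. The 2 alternatives that left out spans over 1.5 times their RefSeq length, or kept genes with no other gene within 5 kb, were chosen after seeing the data. The cause of these shifts was not tested unless fewer or other genes were compared by construction.

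Peaks with a −log10 q of at least 5 gave 28.8% of genes with a peak, a span difference of 0.18, 51.2 percentage points between genes of at least 10 TPM and genes without a count (50.8 at 10 to 100 kb), 0.00820 points for a divergent and 25.2 for a convergent neighbour, and a logistic coefficient of TPM of 1.27 against 1.32. Equal numbers of peaks gave a span difference of 0.36 and level differences of 57.4 and 57.3 points. Counting summits in the span gave 29.4% of genes, a span difference of 0.81, 6 exons, 55.4 and 56.0 points by level, -3.05 divergent, 7.58 antisense and 17.0 convergent points and a coefficient of 1.22. Setting genes with a peak against all others gave a TPM difference of 6.82, a CPM difference of 7.58 and a span difference of 0.28. Genes with no overlapping gene gave 7.57 (TPM), 0.33 (span), -2.97 divergent points and a coefficient of 1.497. Including genes at several loci gave 1.27 divergent and 6.99 antisense points and a coefficient of 1.25. Protein-coding genes alone gave 41.7% of genes, 6.53 (TPM), 6.86 (CPM), -0.11 (span), 3 exons and 0.0685 divergent points. A minimum of 10 counts gave 51.4% of genes, 2.59 (TPM), 2.80 (CPM), -0.60 (span), 1 exon, 0.370 divergent points and a coefficient of 0.817, and leaves no gene without counts. A pseudocount of 1 gave 4.52 (TPM) and 5.02 (CPM). Genes with no other gene within 5 kb gave 21.3% of genes, 8.03 (TPM), 8.74 (CPM), 0.96 (span), 54.8 and 54.6 points by level and a coefficient of 1.83.

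Where 1 S9.6 shScr library was left out, a peak in the other was enough, so the rule was looser. Leaving out 1 library at a time, the share of genes with a peak ran from 34.5% to 41.1% and the TPM difference from 6.88 to 7.40. The CPM difference ran from 7.55 to 8.02, the span difference from 0.36 to 0.47 and the exon difference from 3 to 4. The level difference ran from 58.9 to 66.0 points (58.7 to 65.3 at 10 to 100 kb), the divergent difference from 0.808 to 1.00, the antisense from 7.04 to 8.88, the convergent from 18.5 to 23.1 and the coefficient from 1.31 to 1.35. The S9.6 minus RNase-treated difference ran from 36.4 to 40.4 points, and the shRNF8 minus shScr difference from -0.0730 to 0.0528, so that leaving out shRNF8 replicate 2 (0.0528) or shScr replicate 1 (0.00400) turned its sign, as did equal numbers of peaks (0.0311). With the replicate number as a block, the replicate block values were 38.4 points (exact p = 0.500) and -0.131 (exact p = 0.500), with 2 pairs in each.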

Other observations

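Gene types other than protein-coding differed in how often they met a peak. Among genes of at least 1 TPM, 57.7% of 11713 protein-coding genes had a peak in both S9.6 libraries, 48.5% of 509 long noncoding RNA genes, 37.4% of 171 miRNA genes, 34.9% of 192 snoRNA genes and 24.5% of 204 transcribed pseudogenes. Over all levels the shares were 41.7%, 17.6%, 15.04%, 23.8% and 10.3%. Another gene overlapped 71.0% of miRNA and 88.1% of snoRNA genes, against 27.5% of protein-coding genes, so that a peak over such a gene often cannot be assigned to it or to the gene around it. Of the 388 genes without a count that had a peak, 171 were miRNA genes, 130 protein-coding and 21 snoRNA genes.

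Over the TPM classes from no counts to 100 TPM or more, the number of peaks per 100 kb of the span of all genes in S9.6 replicate 1 was 0.889, 0.546, 1.22, 1.76, 6.01 and 15.4, and in replicate 2 it was 0.686, 0.407, 0.926, 1.34, 4.83 and 13.2. These values include genes without a peak. Among genes with a peak, the median number of peaks ran from 1 to 3 in each library, and the median highest fold ran from 7.07 to 9.47 in replicate 1 and from 6.50 to 9.31 in replicate 2 over the same classes. The median gene with a peak and no count had 79.0% of its span covered in replicate 1, against 30.3% at 100 TPM or more. These classes differ in span, and coverage was not compared at equal span. Of the 388 genes with a peak and no count, 189 spanned less than 1 kb. Over all levels, genes with a peak in that span class had a median coverage of 100% in replicate 1.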
